A study of Mus musculus with 12 samples.

Results

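The epithelial peptide GPR15L, listed under the symbol 2610528A11Rik and carrying the synonym Gpr15l in RefSeq, and its receptor Gpr15 are described across mouse epidermis and skin papillomas. The 2 genes were taken by symbol from 23235 gene symbols, and they were chosen by their FPKM across these same 4 groups, so their own levels and differences are given as a description with no test. All animals were FVB/NJ mice, and polyA RNA was sequenced from 3 libraries in each of 4 groups. Papillomas are benign tumours of the skin, here harvested before malignancy. They grew on mice shaved at 6 to 7 weeks of age, painted once with 400 nmol DMBA, a carcinogen, and then promoted with repeated applications of 10 nmol TPA. Papilloma mice then received 20% camphor white oil (CWO), an essential oil of the camphor tree, or acetone vehicle for 6 weeks, and each library pools 4 tumours from 1 mouse. Epidermis came from shaved mice with no DMBA or TPA named in their labels, 24 h after 400 µL of 20% CWO or acetone, and their age was not given. Tissue, carcinogen and promoter exposure, and length of treatment go together, so their shares in a difference between papilloma and epidermis cannot be told apart.

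GPR15L is a small secreted peptide made by epithelial cells of the gut and skin. Its receptor GPR15 is a G protein-coupled receptor carried mainly by T cells, including regulatory T cells, and it guides such cells to the colon and the skin. The ligand is known to be raised in inflamed skin such as psoriasis.

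The libraries held 11.1 to 24.6 M (mega) fragments, recovered from the deposited values. Between 11838 and 12452 genes per library reached 1 FPKM (fragments per kilobase of transcript and per M fragments sequenced). The keratinocyte genes Krt5 and Krt10 were abundant in all 12 libraries, at no less than 2580.2 and 2061 FPKM. Skeletal muscle RNA was also present in epidermis: 18 muscle markers summed to 3335 to 4339 FPKM with CWO and 4019 to 19769 FPKM with vehicle. Vehicle libraries 1 and 2 were the muscle-rich ones, with 2786 and 4936 FPKM of the muscle actin Acta1, against 887 FPKM in vehicle library 3.

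The gene 2610528A11Rik lay on chromosome 14 from 37915326 to 37923287 in the mm9 genome, and Gpr15 on chromosome 16 from 58717548 to 58718837. No other listed gene overlapped either. In GENCODE M21 (GRCm38) the ligand gene is on the minus strand, with 3 exons and a coding transcript of 754 nt that encodes 78 residues, while Gpr15 is on the minus strand with 1 exon and encodes 360 residues. The 250 bases upstream of each annotated start, from RefSeq on GRCm38.p6, are shown because the ligand's level differed between groups and the receptor's group ranges all overlapped. They cover chr14:37110102-37110351 (minus strand) and chr16:58718873-58719122 (minus strand), are written 5′ to 3′, and carry motif matches in capitals.
2610528A11Rik: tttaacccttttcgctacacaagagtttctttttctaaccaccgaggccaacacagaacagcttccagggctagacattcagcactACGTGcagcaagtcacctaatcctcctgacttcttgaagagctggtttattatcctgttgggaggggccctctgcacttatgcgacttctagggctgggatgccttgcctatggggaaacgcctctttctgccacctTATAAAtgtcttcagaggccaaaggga
Gpr15: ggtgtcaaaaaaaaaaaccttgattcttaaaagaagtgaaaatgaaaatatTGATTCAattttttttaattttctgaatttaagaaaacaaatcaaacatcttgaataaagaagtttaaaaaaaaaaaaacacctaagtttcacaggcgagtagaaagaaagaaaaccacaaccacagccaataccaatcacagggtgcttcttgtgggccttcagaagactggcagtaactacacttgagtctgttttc
The capitals in the ligand promoter mark ACGTG, the core of hypoxia-response elements, at bases 87 to 91. They also mark TATAAA, a core promoter element, at bases 224 to 229. Of 32851 RefSeq promoters of this length, 16.6% held ACGTG and 12.4% held TATAAA. The capitals in the Gpr15 promoter mark TGANTCA, a pattern looser than the AP-1 consensus because N is any base. It was present in 6.75% of promoters, and the match here, TGATTCA, is not the consensus itself. On both strands, neither sequence held GCGTG (the core recognised by the aryl hydrocarbon receptor, in 28.2% of promoters), TTCNNNGAA (a STAT motif, 7.02%), AACCNGTT (a Grainyhead motif, 1.79%) or the NF-kB consensus (7.25%), which says only that these letters are not in these windows. GC content was 49.2% for the ligand promoter and 31.6% for the Gpr15 promoter, and the median of all promoters was 52.4%.

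The ligand gene was among the most abundant transcripts of papillomas, intermediate in CWO-treated epidermis and low in vehicle epidermis. In papillomas given CWO, 2610528A11Rik had 1258, 1076 and 656 FPKM in libraries 1, 2 and 3, and in papillomas given vehicle it had 940, 857 and 906 FPKM. In epidermis given CWO it had 71.2, 62.9 and 48.9 FPKM, and in epidermis given vehicle it had 2.52, 3.32 and 3.60 FPKM. The ranges of the 2 papilloma groups overlapped, while every papilloma library lay above every epidermis library and every CWO epidermis library above every vehicle one. The order of the group means was papilloma CWO (997 ± 309 FPKM), papilloma vehicle (901 ± 41.7), epidermis CWO (61.0 ± 11.3) and epidermis vehicle (3.15 ± 0.561; SD, n = 3 each), and only the first 2 neighbours in that order did not differ beyond their spread.

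Counting error was small beside these gaps. The ligand values rested on 6198 to 14315 fragments per library in papilloma CWO, 7894 to 9655 in papilloma vehicle, 475 to 690 in epidermis CWO and 19 to 48 in epidermis vehicle. Ranked by FPKM within its library, the ligand gene stood at 62 to 123 in papilloma CWO and 85 to 93 in papilloma vehicle. It stood at 1443 to 2097 in epidermis CWO and 9655 to 10766 in epidermis vehicle, where 11999 to 12452 genes reached 1 FPKM. The spread within a group was widest in papilloma CWO, with a coefficient of variation of 31.0% against 4.63% in papilloma vehicle. Papilloma CWO library 3, the lowest of its group for the ligand, also had the lowest Krt10, a keratin of differentiating keratinocytes, at 2061 FPKM, while libraries 1 and 2 had 8028 and 6199.9 FPKM. The part of differentiation in that ligand value was not tested.

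**Figure D1:**
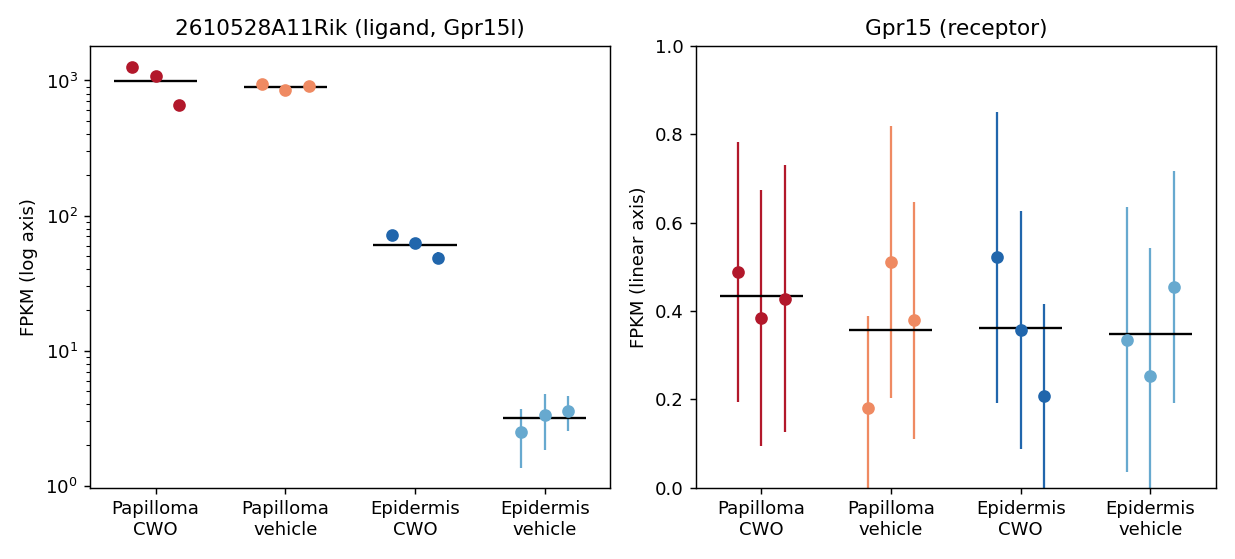
FPKM of 2610528A11Rik (left, log axis) and Gpr15 (right, linear axis) in each of 12 libraries, with Cufflinks intervals as bars and group means as black lines. The ligand falls into 3 levels, with means of 997 and 901 in papilloma, 61.0 in epidermis CWO and 3.15 FPKM in epidermis vehicle, whereas all Gpr15 points lie between 0.181 and 0.522 FPKM.

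Gpr15 was near the limit of detection in every group. In papillomas given CWO it had 0.489, 0.384 and 0.428 FPKM, and in papillomas given vehicle 0.181, 0.511 and 0.379 FPKM. In epidermis given CWO it had 0.522, 0.357 and 0.208 FPKM, and in epidermis given vehicle 0.335, 0.252 and 0.454 FPKM. All 4 groups overlapped, and no library reached 1 FPKM. The means were 0.434 ± 0.0524 in papilloma CWO, 0.357 ± 0.166 in papilloma vehicle, 0.362 ± 0.157 in epidermis CWO and 0.347 ± 0.102 FPKM in epidermis vehicle (SD, n = 3 each). No neighbours in that order differed beyond their spread.

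These receptor values came from 89 fragments in all 12 libraries, with 3 to 12 fragments in any 1 library. Summed over a group, Gpr15 gave 0.479 fragments per M sequenced in papilloma CWO (95% Poisson interval 0.313 to 0.702), 0.407 in papilloma vehicle (0.255 to 0.616), 0.388 in epidermis CWO (0.240 to 0.593) and 0.411 in epidermis vehicle (0.251 to 0.634). The intervals, which cover counting error only, overlapped throughout, so a difference in receptor level between any 2 groups was not detectable at this depth. Because Gpr15 stayed below 1 FPKM, it was left out of every fit that needed at least 1 FPKM in at least 3 libraries. No test was read for Gpr15 from the fits without that filter, and no gene was ranked by likeness to it. The ratio of ligand to receptor FPKM, taken from group means, was 2299 in papilloma CWO, 2524 in papilloma vehicle, 168 in epidermis CWO and 9.06 in epidermis vehicle. The receptor's 3 to 12 fragments limit each single-library ratio, which ran from 1677 to 5206 among papilloma vehicle libraries.

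In epidermis, the question was what a single CWO application did within 24 h. The ligand gene was 3.89 higher with CWO than with vehicle on the log2(FPKM + 1) scale, and the mean FPKM was 19.4-fold higher. Any CWO library stood 13.6-fold to 28.3-fold above any vehicle library. Of 12311 genes tested, only Rpl34-ps1, a ribosomal protein pseudogene named after its value was seen, had a larger difference, 5.89. In the authors' deposited table of 176 epidermis genes the ligand was first by fold, with 554.91 mean normalised counts with CWO and 29.77 with vehicle, an 18.64-fold difference, and that table did not list Gpr15. Gpr15 differed by 0.01 on the log2(FPKM + 1) scale between CWO and vehicle epidermis.

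In papillomas, after 6 weeks of treatment, the ligand difference between CWO and vehicle was 0.09 on the log2(FPKM + 1) scale, with means 1.11-fold apart. Pairs of CWO and vehicle libraries gave ratios of 0.697 to 1.47, on both sides of 1. Its sign rested on single libraries: leaving out 1 at a time gave -0.10 to 0.37. The authors' deposited table of papilloma genes gave 10070.4 mean normalised counts with CWO and 8974 with vehicle for the ligand, 1.12-fold, and 9.54 and 7.97 for Gpr15, 1.20-fold. The CWO difference in papilloma minus that in epidermis was -3.80 for the ligand on the log2 scale, the fourth-lowest value of 13224 genes, and 0.07 for Gpr15.

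**Figure D2:**
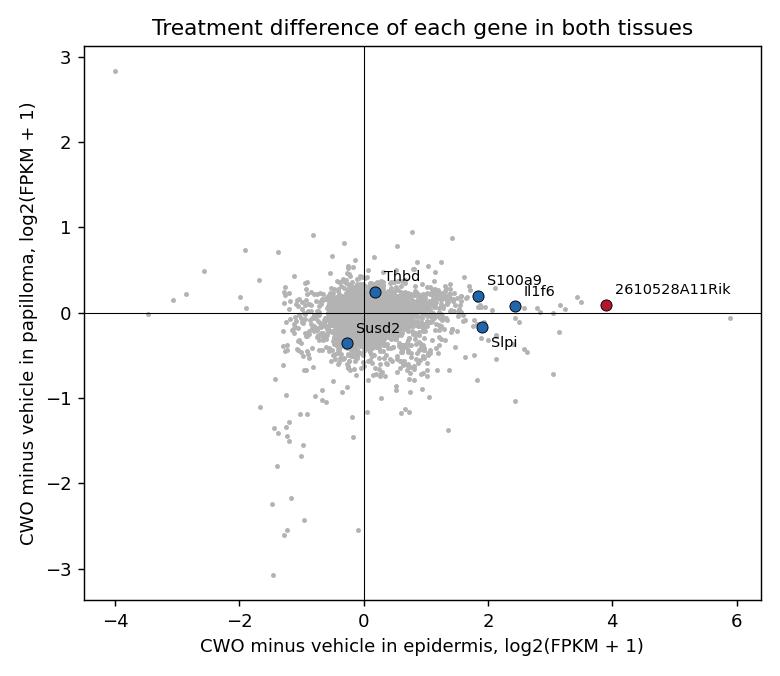
CWO minus vehicle in epidermis (x axis) and in papilloma (y axis) for 11310 genes tested in both tissues, on the log2(FPKM + 1) scale. 2610528A11Rik (red) sits at 3.89 on the x axis and 0.09 on the y axis, to the right of Il1f6 at 2.43 and 0.07, while Thbd and Susd2 lie close to the centre.

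Between tissues, the ligand gene was higher in papilloma under both treatments. Under vehicle, papilloma exceeded epidermis by 7.77 on the log2(FPKM + 1) scale, 286-fold in mean FPKM, and the difference ranked 21 from the highest of 12820 genes tested. Under CWO the difference was 3.97, 16.3-fold in mean FPKM, and ranked 105 of 12720. Single pairs of libraries gave 238-fold to 373-fold under vehicle and 9.21-fold to 25.8-fold under CWO. Gpr15 differed by 0.006 under vehicle and by 0.08 under CWO on the same scale. Relative to 14 keratinocyte reference genes, the ligand difference under vehicle was 7.37 and that of Gpr15 -0.40. The same shift was taken from 7.77 and from 0.006, so no fall of Gpr15 can be read from -0.40. The reference genes were themselves not all steady, with 4 called higher and 1 lower under vehicle (limma adjusted p under 0.05). The comparisons between tissues share libraries with those of the 2 treatments, so their values are not separate evidence.

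Other genes tied to this receptor moved in different ways between tissues. In papilloma against epidermis under vehicle, 69.9% of 12820 genes passing a filter (FPKM of at least 1 in at least 3 libraries) were called, 31.7% higher and 38.2% lower. Such a filter can admit a gene only through the tissue where it is high, so tests of single genes between tissues are given only where all 3 libraries of both groups reached 1 FPKM. Counts over gene lists between tissues use no filter, and with none 57.6% of 17824 genes were called, 26.8% higher and 30.8% lower. Of 6 genes listed as other reported partners of the ligand or the receptor, 4 could then be tested, and Thbd rose while Susd2 and Mrgprb2 fell. Thrombomodulin (Thbd), a surface anticoagulant protein that human work reports as a GPR15 ligand, had 95.3, 87.9 and 99.0 FPKM in papilloma CWO, 79.0, 72.5 and 87.1 in papilloma vehicle, 1.35, 2.01 and 2.19 in epidermis CWO, and 1.88, 1.65 and 1.01 in epidermis vehicle. Papilloma and epidermis values of Thbd did not overlap, and under vehicle Thbd rose by 5.01 ± 0.15 (SE) on the log2 scale (limma adjusted p = 2.07e-07). Susd2, a membrane protein reported in human cells as a partner of the ligand, had 20.9, 18.7 and 18.9 FPKM in papilloma CWO, 20.6, 31.1 and 25.3 in papilloma vehicle, 324, 331 and 323 in epidermis CWO, and 350, 466 and 377 in epidermis vehicle. It fell by 3.91 on the log2 scale in papilloma against epidermis under vehicle (SE 0.16, limma adjusted p = 9.15e-07). Mrgprb2, a mast cell receptor, had at most 0.108 FPKM in papilloma vehicle and at least 1.16 FPKM in epidermis vehicle. Mast cell markers went the other way, with 8 of 9 higher in papilloma under vehicle and 0 lower with no filter (limma adjusted p under 0.05). They summed to 40.0 to 57.0 FPKM in papilloma CWO, 32.3 to 44.7 in papilloma vehicle, 3.36 to 3.66 in epidermis CWO and 2.63 to 9.27 in epidermis vehicle.

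The CWO comparison in epidermis called 1.89% of 12311 genes, 1.73% higher and 0.162% lower, and none of the 3 partner genes passed (0 also at an unadjusted limma p under 0.05). Thbd and Susd2 differed there by 0.18 and -0.27 on the log2 scale. The CWO comparison in papilloma called 0.00821% of 12179 genes, which is 1 gene, the small nucleolar RNA gene Snora75, named after its value was seen. In papilloma Thbd and Susd2 differed by 0.24 and -0.36, and neither passed limma's adjusted threshold, although both had an unadjusted p under 0.05. The epidermis percentages rest on single libraries: 233 genes were called in all, but 80, 100 and 653 without vehicle library 1, 2 or 3, 51 and 78 without CWO library 1 or 2, and 11 without both muscle-rich libraries. Snora75, lower with CWO by 6.39, lost its call without any 1 papilloma library. The only call then made was Snora23, another small nucleolar RNA gene, higher by 2.12 without papilloma vehicle library 2.

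**Figure D3:**
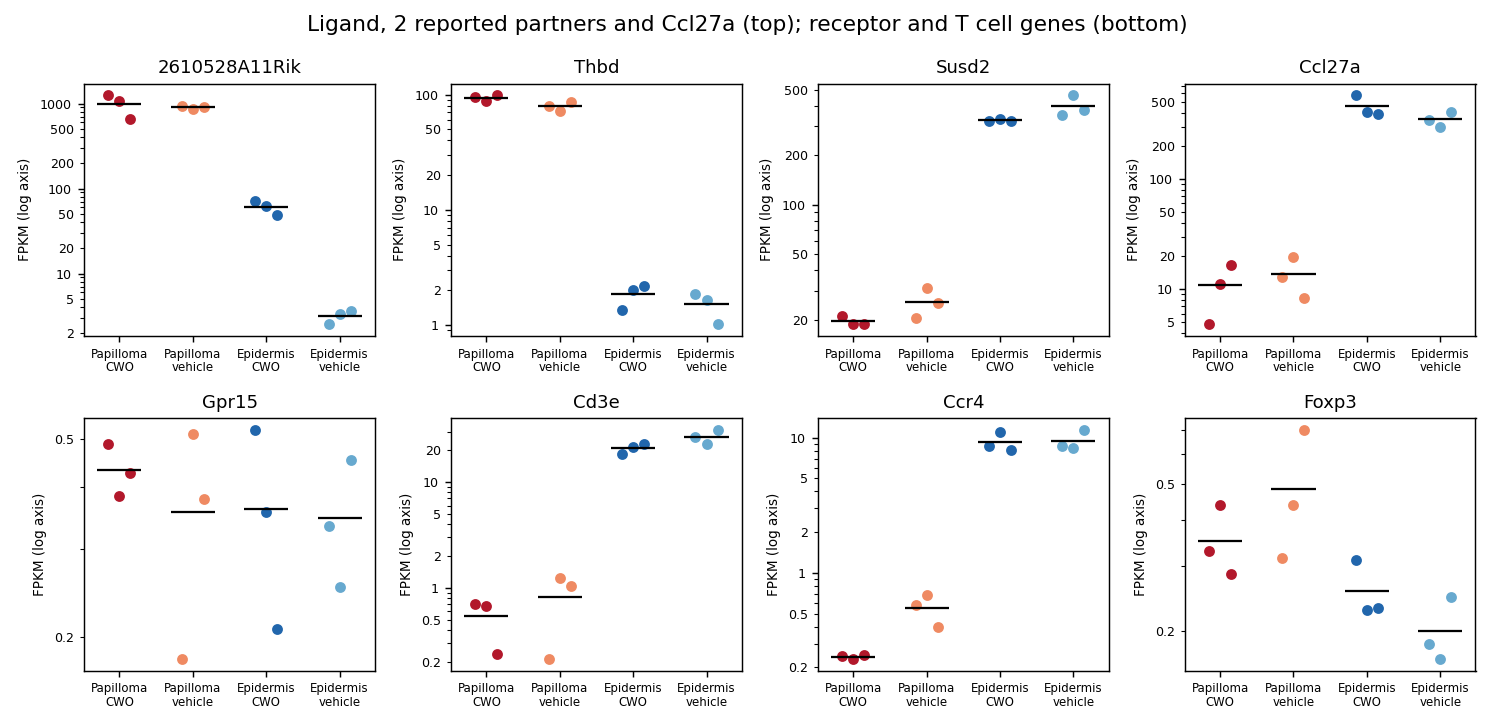
FPKM (log axes, each panel with its own range) in 12 libraries, with group means as black lines. Thbd is high in papilloma like 2610528A11Rik, and Susd2 and Ccl27a are high in epidermis. Gpr15, near the limit of detection, overlaps between all groups, while Cd3e and Ccr4 are at least 8.12 FPKM in epidermis and at most 1.23 FPKM in papilloma.

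T cell transcripts, from the cells in which Gpr15 is best known, summed to less in papilloma. With no filter, 11 of 15 T cell markers fell in papilloma against epidermis under vehicle, 2 rose and 2 did not pass, with a median of -2.13 against -0.01 for all genes. Of all genes, 26.8% rose and 30.8% fell there. Both that rose, Cd5 and Cd8b1, averaged under 1 FPKM in all 4 groups, as did Cd4 and Cd8a, the 2 that did not pass. Among 10 epidermal gamma-delta T cell markers, 8 fell, 1 rose and 1 did not pass in that comparison, with a median of -1.75. The 15 listed T cell markers summed to 25.4 to 30.6 FPKM in papilloma CWO, 27.8 to 37.2 in papilloma vehicle, 259 to 303 in epidermis CWO and 271 to 315 in epidermis vehicle. Gpr15 did not follow this step, since its 4 group means lay between 0.347 and 0.434 FPKM. In such bulk samples, fewer T cells and less RNA per T cell cannot be told apart. Which kinds of T cell carried the fall was not tested.

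Cd3e, a subunit of the T cell receptor complex, had 0.704, 0.677 and 0.235 FPKM in papilloma CWO, 0.212, 1.23 and 1.04 in papilloma vehicle, 18.4, 21.6 and 22.7 in epidermis CWO, and 26.6, 22.9 and 31.2 in epidermis vehicle. Every papilloma library of Cd3e lay below every epidermis library. Foxp3, the regulatory T cell transcription factor, was low everywhere: 0.286 to 0.437 FPKM in papilloma CWO, 0.315 to 0.699 in papilloma vehicle, 0.228 to 0.311 in epidermis CWO and 0.168 to 0.247 in epidermis vehicle. Like Gpr15 it stayed below 1 FPKM. Of 11 regulatory T cell markers, 4 rose in papilloma under vehicle, 3 fell and 4 did not pass with no filter, beside 26.8% higher and 30.8% lower among all genes. The 4 that rose, Foxp3, Il10, Il2ra and Tigit, averaged under 1 FPKM in both of these groups, and those that fell were Ikzf2, Tnfrsf18 and Tnfrsf4.

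Among the 17 listed receptors and integrins that steer lymphocytes, 4 rose, 10 fell and 3 did not pass in papilloma against epidermis under vehicle with no filter. Of all genes, 26.8% rose and 30.8% fell there, so the number that rose was near the share of all genes and the number that fell was above it. Ccr4, a skin-homing chemokine receptor, had 0.230 to 0.246 FPKM in papilloma CWO, 0.397 to 0.681 in papilloma vehicle, 8.12 to 11.1 in epidermis CWO and 8.31 to 11.4 in epidermis vehicle. Itgb7 and Itgae, which form the integrin that holds T cells to epithelium, fell by 1.67 and 1.77 on the log2 scale (limma adjusted p = 6.08e-06 each). Ccr10, the receptor of the skin chemokine Ccl27, stayed between 0.191 and 0.659 FPKM in all 12 libraries, as low as Gpr15. With CWO in epidermis 0 of 10 tested homing receptors passed limma's adjusted threshold and 3 had an unadjusted p under 0.05, and with CWO in papilloma 0 of 8 passed and 0 had an unadjusted p under 0.05.

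Chemokines, which also attract lymphocytes, were listed together with the adhesion molecules that hold such cells. With CWO in epidermis, 4 of 12 tested members rose, against 1.73% of all genes: Ccl17 by 2.16 (SE 0.19, limma adjusted p = 0.00405), Ccl22 by 1.85, Ccl20 by 2.13 and Cxcl16 by 0.71. Among these, Ccl17 and Ccl22 are ligands of Ccr4, Ccl20 is the ligand of Ccr6, and Cxcl16 that of Cxcr6. All 4 lost their call without both muscle-rich libraries. Ccl20 also lost it without CWO library 1, and Cxcl16 without vehicle library 1 or 2 or CWO library 1 or 2, and both lost it with no filter on low values. The CWO effect was lower in papilloma than in epidermis for Ccl17, Ccl20 and Ccl22 of 14 members tested and higher for 0, in a comparison that called 0.718% of 13224 genes, 0.0302% higher and 0.688% lower. In papilloma Ccl17 was at most 0.661 FPKM, a floor that keeps its effect there near 0, whereas 2610528A11Rik was at least 656 FPKM there.

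Between tissues under vehicle, 5 of 17 members of that list rose in papilloma with no filter, 8 fell and 4 did not pass. The number that rose was near the 26.8% of all genes, and the number that fell was above the 30.8% of all genes. Ccl8, a chemokine of the monocyte chemoattractant type, had 198, 236 and 285 FPKM in papilloma CWO, 308, 232 and 99.6 in papilloma vehicle, 8.05, 4.76 and 7.84 in epidermis CWO, and 11.3, 7.24 and 5.17 in epidermis vehicle. Ccl8 rose by 4.50 in papilloma against epidermis under vehicle (SE 0.41, limma adjusted p = 3.48e-05), the ligand's direction, whereas its CWO and vehicle values overlapped in both tissues. Ccl27a, the keratinocyte chemokine that Ccr10 binds, had 4.78, 11.2 and 16.4 FPKM in papilloma CWO, 12.9, 19.5 and 8.35 in papilloma vehicle, 579, 406 and 391 in epidermis CWO, and 344, 300 and 406 in epidermis vehicle. It fell by 4.65 in papilloma against epidermis under vehicle (SE 0.26, limma adjusted p = 3.15e-06), the reverse of the ligand's direction.

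Downstream of the receptor, G proteins of the inhibitory class and arrestins carry and end its signal. Of 14 such genes, 4 rose, 6 fell and 4 did not pass in papilloma under vehicle with no filter. Among all genes 26.8% rose and 30.8% fell, so the number that rose was near the share of all genes and the number that fell somewhat above it. Arrb1 and Arrb2, the arrestins, fell by 1.65 and 0.99 on the log2 scale (limma adjusted p = 1.21e-05 and 0.000166). Rgs1, a G protein regulator of lymphocytes, had 2.56 to 2.72 FPKM in epidermis CWO and 0.648 to 1.42 in epidermis vehicle. It passed the filter through its CWO libraries alone, and with no filter it was not called. With CWO in papilloma 0 of 13 passed limma's adjusted threshold, and 0 had an unadjusted p under 0.05.

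The aryl hydrocarbon receptor (Ahr), a sensor of small molecules, is known to drive Gpr15 in T cells. Its classical target Cyp1a1 had 0.419, 0.567 and 0.790 FPKM in papilloma CWO, 1.65, 3.37 and 0.426 in papilloma vehicle, 66.1, 53.5 and 77.2 in epidermis CWO, and 54.5, 43.7 and 61.5 in epidermis vehicle. CWO and vehicle epidermis overlapped for Cyp1a1, and papilloma stood below epidermis throughout. With CWO, 0 of 10 tested genes of this pathway in epidermis passed limma's adjusted threshold, and 1 had an unadjusted p under 0.05. In papilloma under vehicle with no filter 3 of 10 rose, close to the 26.8% of all genes, and 6 fell, above the 30.8% of all genes. Nqo1, a detoxifying enzyme, rose by 3.35 on the log2 scale (SE 0.12, limma adjusted p = 4.76e-07).

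Antimicrobial and IL-17-type response genes of keratinocytes showed the ligand's tissue direction. In papilloma under vehicle with no filter, 13 of 20 antimicrobial genes rose and 2 fell (median 2.10, all genes -0.01), and 17 of 29 IL-17-type genes rose and 3 fell (median 1.84). Of all genes, 26.8% rose and 30.8% fell there. Slpi, a protease inhibitor with antimicrobial activity, rose by 8.97 (SE 0.22, limma adjusted p = 7.64e-08), and Defb14, a beta-defensin, rose by 5.14 (SE 0.15, limma adjusted p = 1.98e-07). Il1f6, an epithelial cytokine of the interleukin-1 family, had 313, 194 and 223 FPKM in papilloma CWO, 186, 187 and 334 in papilloma vehicle, 36.4, 41.6 and 25.3 in epidermis CWO, and 4.95, 6.34 and 5.11 in epidermis vehicle. Il1f6 thus fell into 3 levels in the same order as the ligand, with smaller steps. In epidermis Il1f6 rose with CWO by 2.43 (SE 0.19, limma adjusted p = 0.0029) and kept its call in all 13 alternative settings.

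Slpi and S100a9 also rose both with CWO in epidermis and in papilloma against epidermis, while Defb6 and Defb14 did not. In CWO epidermis 3 of 17 antimicrobial genes rose, namely Defb6 by 1.63, Slpi by 1.90 and S100a9 by 1.84, and 3 of 22 IL-17-type genes rose, with S100a9 on both lists. Of all genes tested there, 1.73% rose. Slpi averaged 3311 FPKM in papilloma CWO, 3681 in papilloma vehicle, 26.6 in epidermis CWO and 6.56 in epidermis vehicle. S100a9, a calprotectin subunit, averaged 5686, 4908, 84.2 and 24.2 FPKM in the same order and rose by 7.69 in papilloma against epidermis under vehicle (SE 0.31, limma adjusted p = 7.73e-07). In CWO epidermis Defb6 and Slpi lost their call without both muscle-rich libraries, S100a9 without vehicle library 1 or any 1 CWO library, and Slpi and S100a9 with no filter. Defb6, an epidermal beta-defensin, was 90.7 to 100.2 FPKM in papilloma CWO, 116 to 172 in papilloma vehicle, 2202 to 2518 in epidermis CWO and 716 to 815 in epidermis vehicle, so that it rose with CWO in epidermis and fell by 2.51 in papilloma against epidermis under vehicle (SE 0.16, limma adjusted p = 5.28e-06). Defb14 differed by 0.11 with CWO in epidermis and did not pass (limma adjusted p = 0.924). With CWO in papilloma, 0 of 18 antimicrobial and 0 of 24 IL-17-type genes passed limma's adjusted threshold, and 1 and 0 had an unadjusted p under 0.05.

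The named genes with the profile most like that of 2610528A11Rik were Sprr2 genes, a stefin, a keratin and a gasdermin. Likeness was the root-mean-square difference over 12 libraries between log2(FPKM + 1) values centred on each gene's mean, and among 13187 genes its median was 3.30. The 8 nearest genes with a full name were Stfa3 (0.46), Sprr2h (0.51), Sprr2d (0.64), Sprr2a2 (0.66), Krt16 (0.82), Sprr2g (0.83), Gsdmc (0.83) and Sprr2e (0.84). They ranked 2, 4 and 6 to 11 among all genes, and ranks 1, 3 and 5, the nearest at 0.345, were the gene models BC100530, Gm5416 and BC117090, which the naming rule left out. Being chosen for likeness, the 8 get no test. Near-identical copies of Sprr2 and stefin genes can share reads, so their single values are uncertain.

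Stfa3, a stefin that inhibits cysteine proteases, averaged 3305 FPKM in papilloma CWO, 3210 in papilloma vehicle, 204 in epidermis CWO and 27.6 in epidermis vehicle. Sprr2h, a cornified envelope precursor, averaged 1091, 1106, 70.2 and 6.86 FPKM in the same order of groups. Krt16, a keratin of activated epidermis, averaged 9372 FPKM in papilloma CWO, 8978 in papilloma vehicle, 413 in epidermis CWO and 107 in epidermis vehicle. All 8 genes averaged more in both papilloma groups than in epidermis CWO, and more in epidermis CWO than in epidermis vehicle. Their CWO differences in epidermis, 1.83 to 3.44 on the log2(FPKM + 1) scale, were smaller than the ligand's 3.89.

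**Figure D4:**
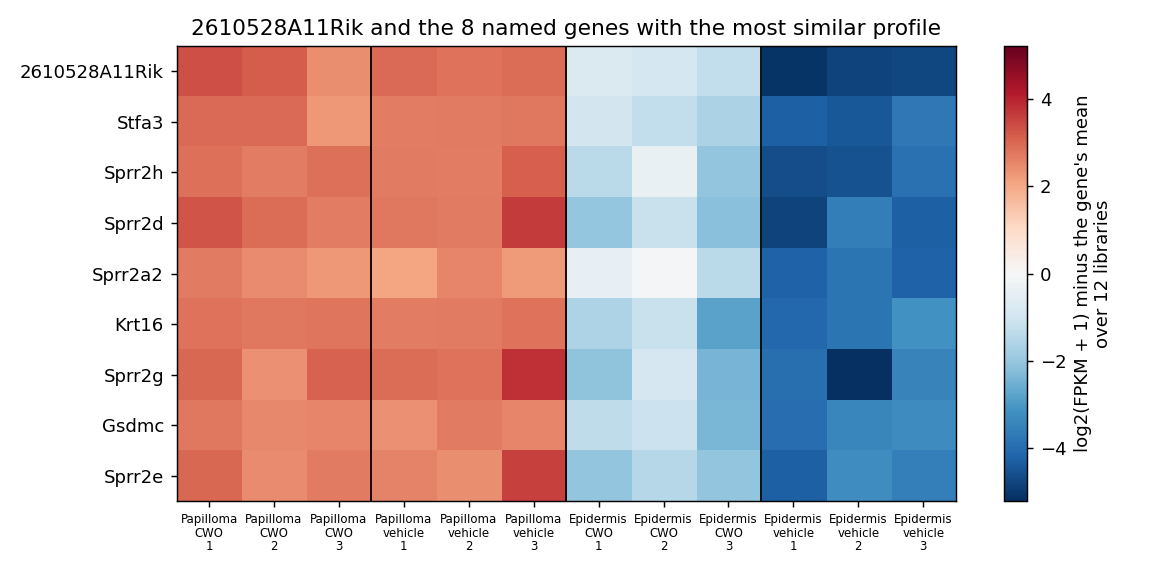
log2(FPKM + 1) of 2610528A11Rik and its 8 nearest named genes in 12 libraries, each centred on its own mean (red above, blue below). All 9 genes are red in the 6 papilloma libraries and darkest blue in vehicle epidermis, with CWO epidermis between.

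The nearest listed gene to the ligand shared part of its pattern. Cdhr1, a cadherin-related gene best known from photoreceptors, lies 3.83 kb beyond the 3′ end of the ligand gene on the same strand. It had 13.3, 14.8 and 10.6 FPKM in papilloma CWO, 10.9, 10.6 and 10.4 in papilloma vehicle, 0.220, 0.350 and 0.110 in epidermis CWO, and 0.0707, 0.0443 and 0.0400 in epidermis vehicle. The group means of Cdhr1 were 1.29%, 1.18%, 0.371% and 1.64% of the ligand's FPKM in that order, and the epidermis values rested on 8 to 26 fragments per library with CWO and 2 to 4 with vehicle. Whether these fragments come from Cdhr1 transcripts or from reads beyond the end of the ligand gene was not tested. Ghitm, a mitochondrial membrane protein gene 10.3 kb on the other side, averaged 62.9 FPKM in papilloma CWO, 63.8 in papilloma vehicle, 82.9 in epidermis CWO and 73.1 in epidermis vehicle, with none of the ligand's steps.

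Around Gpr15, the nearest expressed genes were Cldn25 at 9.19 kb and Cpox, a haem synthesis gene, at 37.0 kb. Cldn25 averaged 88.2 FPKM in papilloma CWO, 82.7 in papilloma vehicle, 45.7 in epidermis CWO and 41.9 in epidermis vehicle, and Cpox 47.8, 42.9, 21.5 and 14.3 FPKM in the same order. Both were higher in papilloma than in epidermis, whereas Gpr15 between them differed by at most 0.08 on the log2(FPKM + 1) scale between tissues. That scale shrinks changes of a gene below 1 FPKM. In mean FPKM, Gpr15 was 1.03-fold higher in papilloma under vehicle and 1.20-fold higher under CWO. The other neighbours of Gpr15, Gm813, E330017A01Rik, Olfr172 and Olfr173, were at or near 0.

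**Figure D5:**
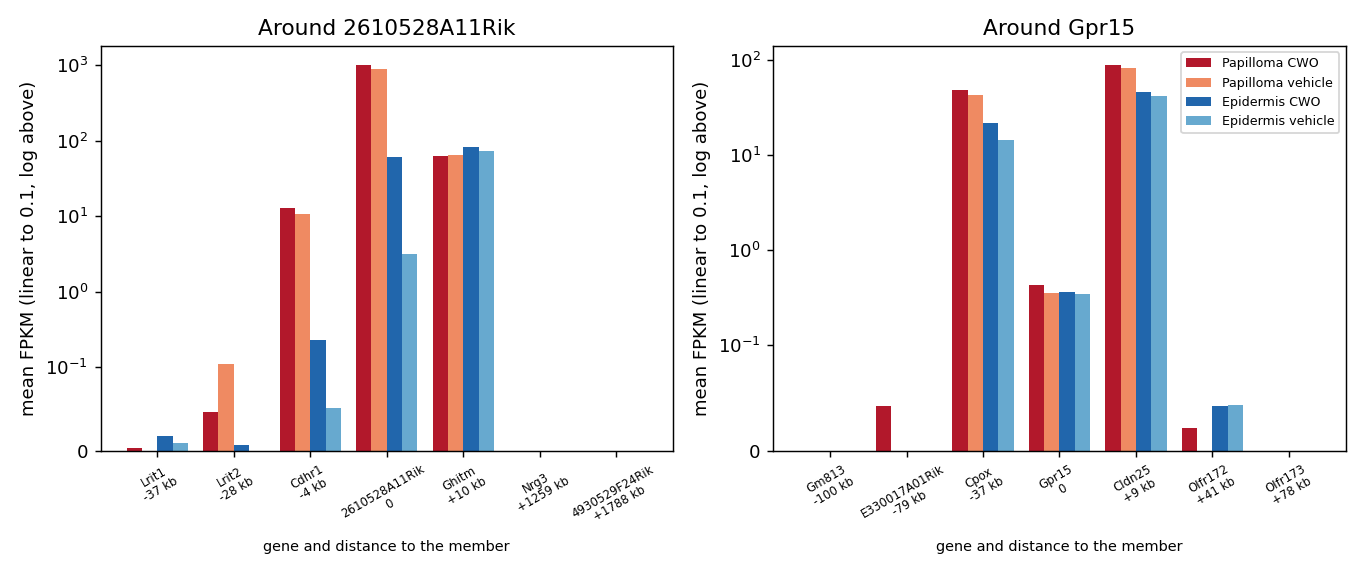
Mean FPKM by group (linear to 0.1, log above) of each member and its 3 nearest listed genes on each side, with distances in kb. Cdhr1 is higher in papilloma than in epidermis, as the ligand is, Ghitm is nearly level, and Cpox and Cldn25 are above Gpr15 in all 4 groups.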

How the data were processed

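RNA from 12 libraries, 3 per group, was sequenced by the submitters, and per the labels' protocols TruSeq polyA libraries were made from the samples with the best RNA integrity. Per the submitters' processing notes, bcl2fastq 1.8.4, TopHat2 2.0.4, Cufflinks 2.0.2, DESeq and the mm9 build were used. The authors deposited FPKM per gene with its interval and status. Per the file headers, their comparison tables hold a mean signal per group (normalised counts), a ratio (fold), its log2 value and a p-value.

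Values that Cufflinks did not mark as OK were treated as missing, and rows sharing a symbol were summed. Fragments were recovered from FPKM and its interval; 67.9% to 69.2% of a library's values below 500 fragments lay within 0.02 of a whole number. The test was limma 3.58.1 with an intensity trend (R 4.3.3) on log2(FPKM + 1), two-sided, over genes with FPKM of at least 1 in at least 3 fitted libraries and at least 2 values per group. This scale understates changes of low genes. Calls needed a Benjamini-Hochberg adjusted p under 0.05 over all genes, and the pipeline was tested on simulated data. Papilloma libraries come from 3 mice per treatment. For epidermis the labels give 3 samples chosen per treatment among the treated mice, without stating 1 mouse per sample; if they are not, p-values measure a spread between samples that may be technical. Between tissues, list counts use no filter, since a filter can admit a gene through the tissue where it is high. Members and gene lists were chosen with earlier results of these data known. Genes were named as the members, the 8 most alike, up to 4 called genes per list by smallest p (or 2 by level), the 3 nearest genes on each side, and a panel. Alternatives were pseudocounts of 0.1 and 3, no filter, median-ratio scaling, a keratinocyte reference, a replicate block, 1 fit of all 12 libraries, and libraries left out.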

Additional observations from a re-analysis of the deposited data

Results flagged for a closer look

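For 8 genes of the lists, the CWO effect differed between papilloma and epidermis by limma's test of the difference itself (Benjamini-Hochberg adjusted over 13224 genes, of which 0.718% were called). The effect in papilloma minus that in epidermis, on the log2 scale, was -2.49 for Gzmc, -2.40 for Ccl20, -2.36 for Ccl17, -2.36 for Il1f6, -2.15 for Defb6, -2.07 for Slpi, -1.78 for Ccl22 and -1.45 for Postn, so all 8 effects were lower in papilloma. Their adjusted p ran from 0.000605 for Defb6 to 0.0315 for Postn. Each had a CWO effect above 1.5 in epidermis and between -0.51 and 0.09 in papilloma. Ccl17 was at most 0.661 FPKM and Gzmc at most 1.26 FPKM in papilloma, where the log2(FPKM + 1) scale keeps an effect near 0, so that for these genes the difference restates the epidermis effect. Ccl17, Defb6 and Slpi kept the call in all 18 alternative settings, Il1f6 in 17, Gzmc in 16, Ccl20 in 10, and Ccl22 and Postn in 7. Of all genes 95 were called, but 17 without both muscle-rich epidermis vehicle libraries; without 1 library at a time the lowest count was 32 (epidermis CWO library 1) and the highest 330 (epidermis vehicle library 3), with 221 without epidermis CWO library 3, 62 and 57 without epidermis vehicle libraries 1 and 2, 53 without epidermis CWO library 2, 52 and 57 without papilloma vehicle libraries 1 and 2, and 42 and 50 without papilloma CWO libraries 2 and 3.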

How the results depend on the processing

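The ligand's difference in epidermis was 4.23 and 3.37 with pseudocounts of 0.1 and 3, and 3.78 to 4.04 without 1 library. In papilloma against epidermis under vehicle it was 8.13 and 7.20 with these pseudocounts, 7.37 relative to keratinocyte reference genes, 7.62 without both muscle-rich libraries and 7.66 to 7.85 without 1 library, and under CWO 3.78 to 4.25 without 1 library. The difference of the CWO effects was -4.14 and -3.27 with these pseudocounts and -3.99 to -3.52 without 1 library, and the papilloma difference -0.10 to 0.37. Gpr15 gave 0.29 in papilloma, 0.26 between tissues under CWO and 0.28 for the difference of effects with a pseudocount of 0.1. Relative to keratinocyte genes it gave -0.40 and -0.19 between tissues under vehicle and CWO, and 0.21 for the difference of effects. Those values relative to keratinocyte genes largely restate the shift of the reference genes. Without 1 library Gpr15 ran from -0.07 to 0.10 in epidermis, -0.01 to 0.17 in papilloma, -0.08 to 0.10 and -0.004 to 0.16 between tissues under vehicle and CWO, and -0.02 to 0.16 for the difference.

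Genes called in epidermis (233) numbered 75 with no filter, 637 in 1 fit of all 12 libraries, 11 without both muscle-rich libraries and 51 to 653 without 1 library. In papilloma (1) they numbered 0 with a pseudocount of 3, no filter or median-ratio scaling, 2 in 1 fit of all 12 libraries and 0 to 1 without 1 library. For the difference (95) they numbered 63 with no filter, 17 without both muscle-rich libraries and 32 to 330 without 1 library. Between tissues they numbered 7578 to 8378 (vehicle) and 7356 to 7975 (CWO) without 1 library. With the replicate number as a block, 26, 5 and 58 genes were called in epidermis, papilloma and the difference. Deviations from the group means in same-numbered libraries correlated at 0.003, -0.41 and -0.33 in epidermis and 0.22, 0.12 and 0.04 in papilloma. The labels do not say whether the numbers pair the samples. These correlations cannot decide it, since differently numbered libraries were not compared. Leaving out both muscle-rich libraries leaves 1 vehicle library, assumed to vary like the others. Median-ratio scaling moved the median of all genes between tissues under CWO to 0.008, against -0.11. Of 3918 alternative values for 302 results of named genes, 102 lost a call, 9 gained one and 0 reversed. The cause was not tested. Depth limits Gpr15, at 3 to 12 fragments per library.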
